A study of Mus musculus with 6 samples.

Results

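Molecular chaperones were followed in cortical neurons of newborn mice that had received a sponge against the microRNA miR-17-5p, an RNA built to carry binding sites that occupy the microRNA. The genes were taken by symbol: the Hsp90 genes, those whose symbol starts with Hspa, Hspb, Hspd, Hspe or Hsph, the Dnaja, Dnajb and Dnajc genes, and Hsf1, Hsf2, Bag3, Stip1 and Chordc1, with pseudogenes left out. The rule took 78 of the 35510 genes in the table, of which 44 were DnaJ genes, 27 were heat-shock proteins, 5 were the genes given by name and 2 (Hspbp1 and Hspbap1) were proteins that bind heat-shock proteins and carry a similar symbol. All 78 were annotated as protein-coding.

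The 3 sponge libraries came from wild-type mice of the outbred stock Swiss (RjOrl:SWISS) whose cortex was electroporated in utero at E15.5 with the miR-17-5p sponge plasmid, and the 3 control libraries from mice of the same stock that received a control plasmid on the same day. Both groups were collected on postnatal day 0. Each library pooled about 100000 cells from about 10 brains, the column names carry the mark of a flow cytometry sort, and the plasmids' promoters are not stated in the labels. Nothing in the labels says how the replicates of a group were separated, so the p-values measure the spread between these libraries, which may be partly technical.

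Heat-shock proteins keep other proteins folded. Hsp70 binds exposed stretches of a chain, a DnaJ protein (also called Hsp40) brings it the client and starts its ATP cycle, Hsp110 resets the cycle by exchanging the nucleotide, and Hsp90 takes over late-folding clients such as kinases and hormone receptors. Heat or damaged protein frees the transcription factor Hsf1, which switches on the inducible members in the cytosol, whereas the members in the endoplasmic reticulum answer to the unfolded protein response. In neurons the same machinery also strips clathrin from recycled synaptic vesicles. In bulk RNA, fewer cells of a type and less RNA per cell cannot be told apart.

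The microRNA that the sponge is built to bind is printed with the seed, bases 2 to 8, in capitals, since the seed sets which transcripts it can target (RefSeq, GRCm38.p6, chr14:115043684-115043706, plus strand).
mmu-miR-17-5p: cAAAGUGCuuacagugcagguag

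No chaperone gene differed between the groups past the threshold. With limma, 0 of the 74 members tested were higher and 0 were lower in the sponge libraries at an adjusted p under 0.05, and among all 22479 genes tested the shares were 0% and 0%. At an unadjusted p under 0.05, Dnajc3 was higher and Hspb1 was lower, which is 1 of 74 in each direction, where 1.58% of all genes were higher and 1.31% were lower (2.89% in either direction). The smallest adjusted p of a member was 0.925. The sponge values lay above all control values in 2 members (background 6.17%) and below them in 5 members (background 5.04%), which is 7 of 74 either way (background 11.2%). The median log2 fold change, sponge over control, was −0.021 over the members and 0.0061 over all genes tested, and 29 of 74 members had a positive value (background 50.9%). Leaving out control library 1 made 49 of 74 positive (background 52%). Control library 3 was the lowest library in 28 of 74 members (background 21.5%). Without it 27 of 74 were positive, and the median was −0.09 (all genes tested 0.011).

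The intervals around these differences were narrow for most members. In 41 of 74 members the 95% interval of the log2 fold change lay between −0.5 and 0.5, against 25.9% of all genes. The half-width of the interval had a median of 0.37 over the members. Among genes with a mean of at least 1000 normalised counts it was 0.32 for the 56 members and 0.37 for all such genes. In those 56 members the log2 fold changes ran from −0.31 to 0.32. The authors' deposited table held the same number of members, 56, and gave 0 of them an unadjusted p under 0.05, where 2.05% of its 10812 genes had one; its smallest adjusted p for a member was 0.995.

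**Figure D1:**
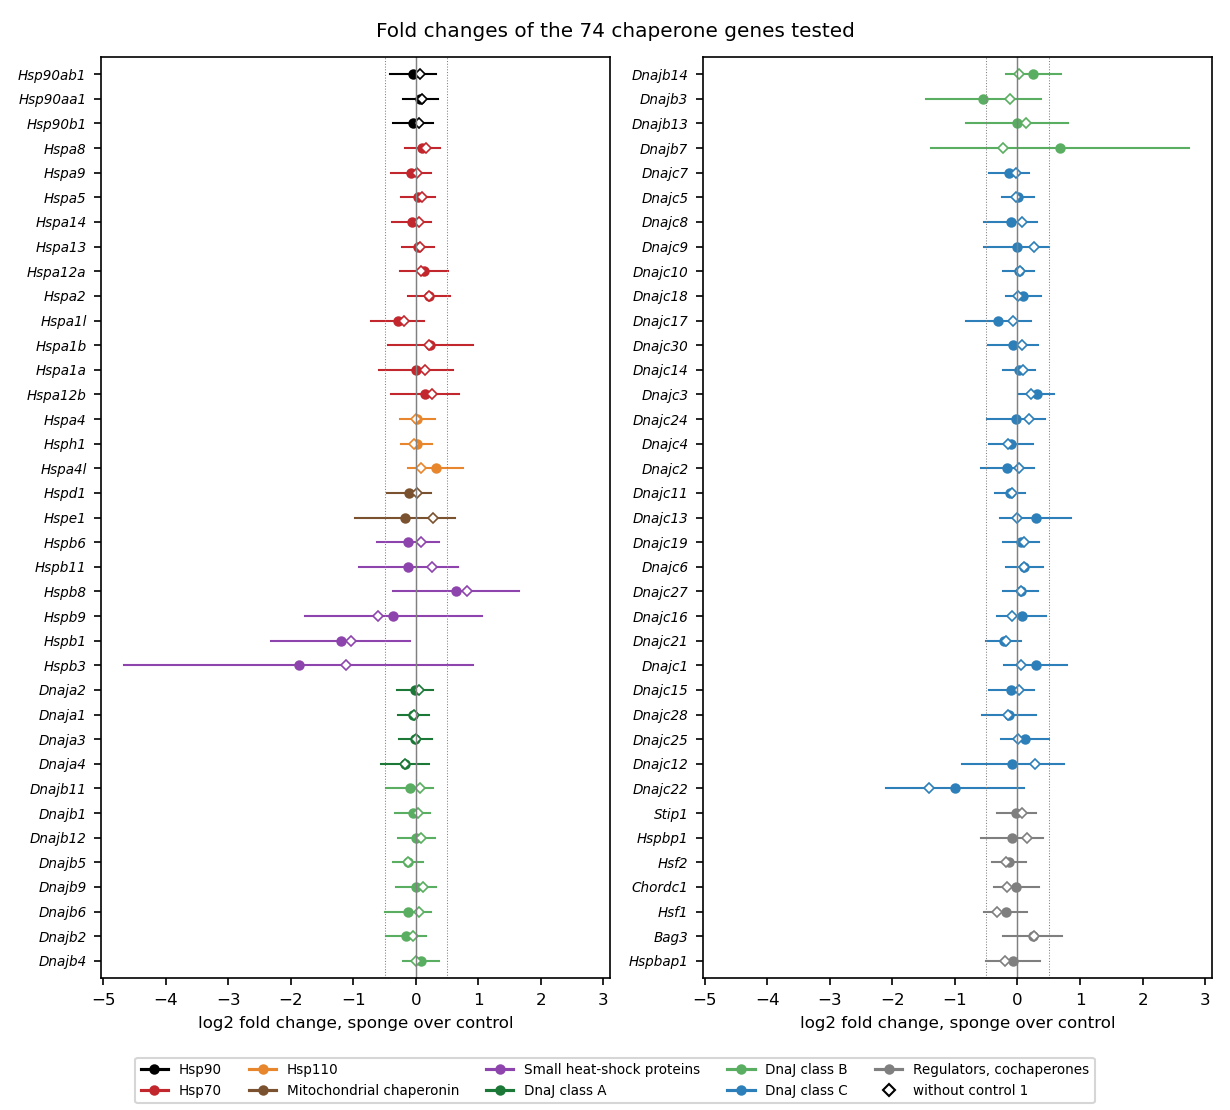
Log2 fold change (sponge over control, x axis) of each of the 74 members tested, coloured by family, with the 95% interval of limma as a line; open diamonds give the value without control library 1, and dotted lines mark −0.5 and 0.5. Intervals of 41 members lie between the dotted lines, and the widest belong to small heat-shock proteins and DnaJ genes of low level, such as Hspb3.

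The libraries themselves set the limits of these comparisons. Depth lay between 115445910 and 138254412 counts per library. The 10 markers of cortical excitatory neurons were above 0 in every library, with summed levels of 646021 to 663613 normalised counts in sponge neurons and 618360 to 683167 in control neurons. Markers of other cells were present too: the 5 astrocyte markers summed to 215986 to 290778 in sponge neurons and 179362 to 236820 in control neurons, and the 6 microglia markers to 1638 to 2131 and 1682 to 3723. The 8 interneuron markers summed to 40709, 55383 and 78551 in sponge neurons and 74350, 76414 and 53349 in control neurons. All 8 had negative log2 fold changes (median −0.24), and 1 was positive without control library 1. Control library 1 stood apart, with an erythroid sum of 32226 against 3090 to 4236 in sponge neurons and 1444 and 3058 in the other control libraries. Values without it are therefore given beside the counts of gene groups by direction and beside members that it moved most.

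Levels spanned several orders of magnitude, and the constitutive chaperones were at the top. Expressed per kilobase of exon, Hsp90ab1, the constitutive cytosolic Hsp90, led with 69900 normalised counts per kilobase in sponge neurons and 73000 in control neurons. Next came Hspa8, the constitutive Hsp70 also called Hsc70, with 19700 and 18400 per kilobase, and the stress-inducible Hsp90 gene Hsp90aa1 with 15200 and 14500. The Hsp90 of the endoplasmic reticulum, Hsp90b1, had 11100 and 11500. Over single libraries these levels did not overlap, except that the lowest library of Hsp90aa1 lay just below the highest of Hsp90b1. Stip1, Hspd1, Hspa9 and Hspa5 followed, and their libraries overlapped from each gene to the next.

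The inducible Hsp70 genes were in the lower part of the order. Hspa1a had 96.0 normalised counts per kilobase in sponge neurons and 97.9 in control neurons, and its near-copy Hspa1b had 228 and 197. Among the small heat-shock proteins, which hold unfolded chains without ATP, Hspb6 was highest (481 and 537) and Hspb1 low (15.4 and 36.9). All 78 members together made up between 0.671% and 0.79% of the counts of a library. Exon lengths join all annotated transcripts, so genes with long minor transcripts are understated.

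**Figure D2:**
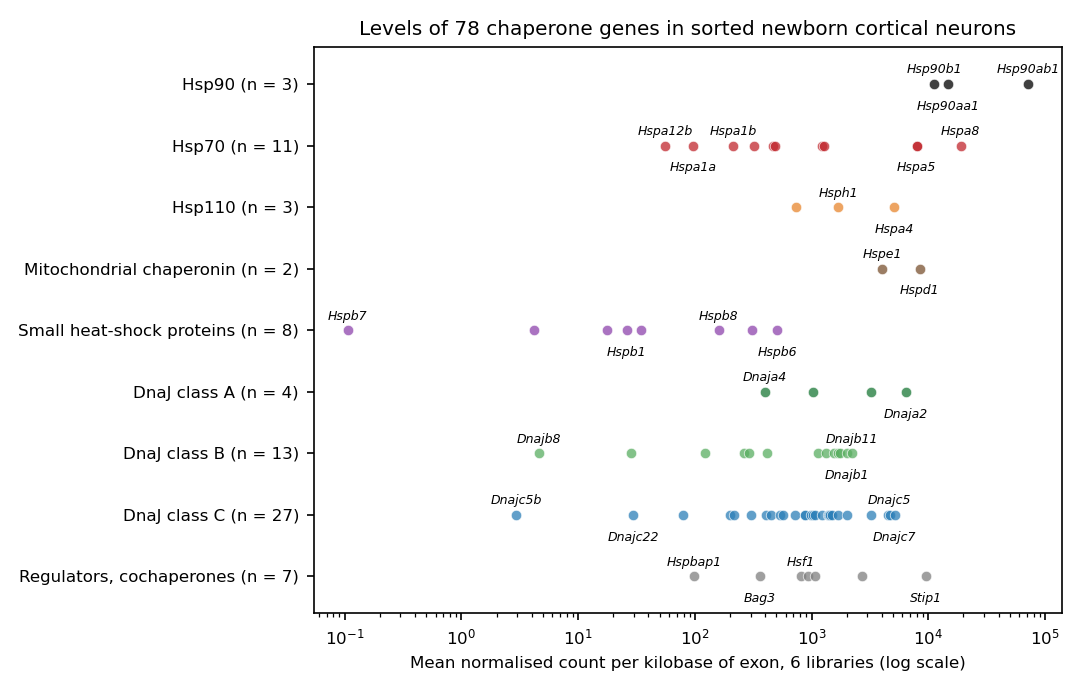
Mean level of each of the 78 members over the 6 libraries, as normalised counts per kilobase of exon on a log scale, by family. Each point is a gene; the Hsp90 family lies at the right end, and the small heat-shock proteins at the left, with Hspb6 the highest of them.

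Among the 15 genes listed as heat-inducible in the cytosol and mitochondria, 7 had a positive and 8 a negative log2 fold change. The list includes Hspa8, which is treated elsewhere here as constitutive. The median was −0.0043 (all genes tested 0.0061), and 0 passed the test. With control library 1 left out the median was 0.09 and 11 of 15 were positive, where 52% of all genes were. The summed level of 9 immediate early genes, which also answer rapidly to stress, was 91782, 112595 and 113628 in sponge neurons and 68075, 73991 and 75369 in control neurons. Those sums did not overlap. Taken singly, 3 of the 9 genes were without overlap (all genes tested 11.2%), and the rest overlapped. The part of this difference in the chaperone values was not tested.

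Hsph1, the Hsp110 of the cytosol, measured 12531, 11852 and 12943 normalised counts in the sponge libraries and 11673, 12822 and 12421 in control libraries 1 to 3. The groups overlapped, and the log2 fold change was 0.016 ± 0.11 (SE; 95% interval −0.23 to 0.26; adjusted p from limma 0.981). Dnajb1, a heat-inducible DnaJ partner of Hsp70, measured 6075, 6231 and 6540 in sponge neurons and 7387, 6154 and 6032 in control neurons. Control library 1 was the highest of the 6, and the other control libraries lay within or just below the sponge values. Hsp90aa1 had 56019, 59246 and 63611 in sponge neurons and 58852, 59924 and 51682 in control neurons (log2 fold change 0.07 ± 0.12, SE). Dnaja1, another cytosolic DnaJ protein, averaged 27607 ± 1163 in sponge neurons and 28389 ± 1413 in control neurons (SD, n = 3 each).

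The inducible pair Hspa1a and Hspa1b lies on chromosome 17 of GRCm38, 9951 bases apart on the minus strand (34969190 to 34972156 and 34956436 to 34959238). Of the 75-base words in Hspa1a transcripts 54.2% also occur in another gene, most often in Hspa1b, so reads could be split between them and their separate values are uncertain. Summed over both genes the level was 741, 1107 and 928 in sponge neurons and 865, 608 and 1058 in control neurons. The groups overlapped, and the order of the libraries was mixed. Hspa1l, the related gene 546 bases from Hspa1a on the other strand, measured 824, 650 and 678 in sponge neurons and 1005, 844 and 787 in control neurons, a log2 fold change of −0.29 ± 0.18 (SE), and its adjusted p from limma was 0.925.

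For the cochaperones that work with these proteins the groups overlapped too. Stip1, also called Hop, which links Hsp70 to Hsp90, averaged 19831 ± 981 in sponge neurons and 20187 ± 2785 in control neurons (SD, n = 3 each), with a 95% interval of the log2 fold change from −0.33 to 0.29. Chordc1, an Hsp90 cochaperone, had 6546, 6990 and 7234 in sponge neurons and 5730, 7140 and 8365 in control neurons. The sponge values lay inside the control range. Bag3, which hands Hsp70 clients to autophagy, measured 1190, 882 and 950 in sponge neurons and 878, 988 and 699 in control neurons (log2 fold change 0.24 ± 0.20, SE).

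The heat shock factors had negative fold changes that did not pass the test. Hsf1 (chromosome 15, 76477422 to 76501913) measured 5304, 5448 and 5357 in sponge neurons and 4995, 6328 and 7224 in control neurons. The sponge values were close together, and control library 1 lay below them while the other control libraries lay above. The log2 fold change was −0.19 ± 0.15 (SE; adjusted p from limma 0.925). It was −0.33 without control library 1 (95% interval −0.53 to −0.14; unadjusted p = 0.00313, adjusted p = 0.648, limma), and −0.07 without control library 3. Hsf2, a relative of Hsf1 with roles in development, had 9739, 9780 and 10227 in sponge neurons and 10328, 10361 and 12091 in control neurons. All 3 sponge values were below all control values, at a log2 fold change of −0.14 ± 0.11 (SE).

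**Figure D3:**
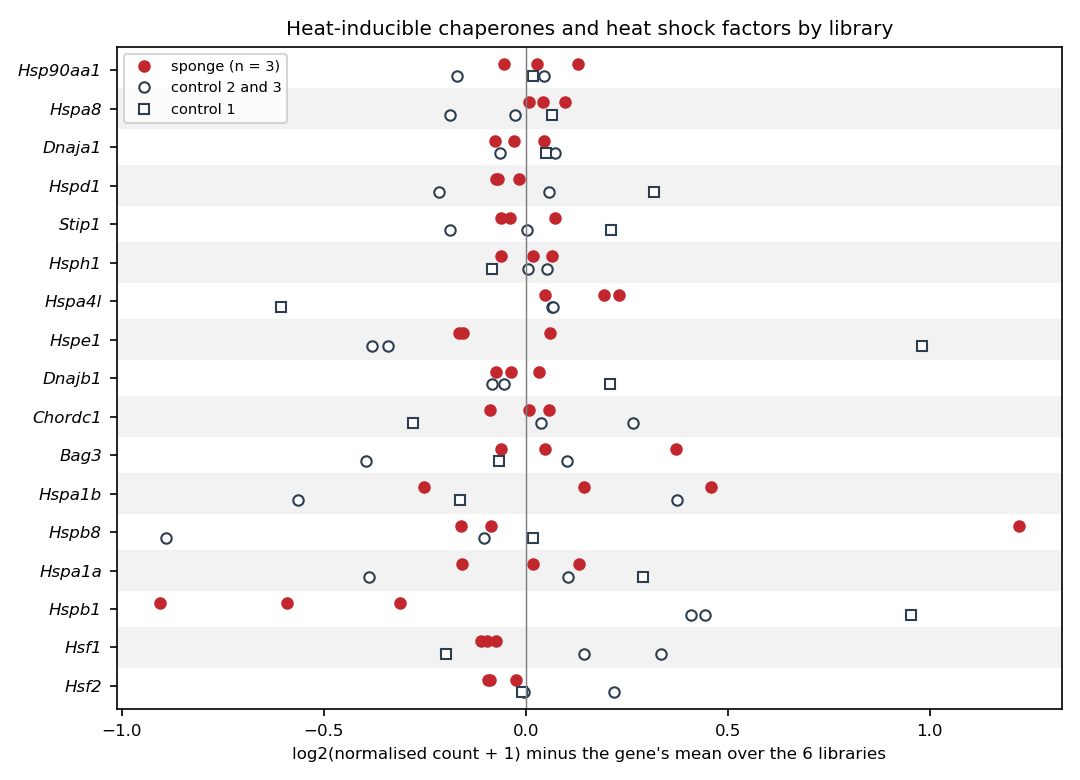
The 15 genes of the heat-inducible list, Hspa8 included, and both heat shock factors by library. The x axis gives log2(normalised count + 1) after subtracting each gene's mean of all 6 libraries. Sponge libraries are filled circles above, control libraries 2 and 3 are open circles and control library 1 is an open square. Control library 1 lies farthest right for Hspe1 and farthest left for Hspa4l, and the sponge libraries lie left of all control libraries for Hspb1 and Hsf2.

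The heat shock element, to which Hsf1 binds, was searched for in promoter windows of 250 bases before to 50 after each start (RefSeq, GRCm38.p6; 63 of 78 members matched), as 3 alternating units of GAA and TTC with 2 free bases between them, on both strands. A pair of such units reads GAANNTTC or TTCNNGAA, and the motif of 3 units contains both pairs. The 3-unit motif was found in 7 of 80 member windows, 5 genes in all, and in 0.603% of all 32851 windows. Some windows overlap, so these are not separate sites: the Dnajb6 and Hsph1 matches each recur in another window, and Hspd1 and Hspe1 share a stretch. By gene the motif was found in 5 of 63 members and in 179 of all 27025 genes. The Hsph1 match lies after the start, and the Chordc1 matches lie around it. It is shown in capitals for those 5 genes, since they carry the element in full: Chordc1 at chr9:18292253-18292295 (plus strand, with 2 further overlapping matches), Dnajb6 at chr5:29735837-29735879 (plus), Hsph1 at chr5:149636273-149636315 (minus), and the stretch shared by the windows of Hspd1 and Hspe1 at chr1:55088049-55088091 (plus, with a further overlapping match).
Chordc1: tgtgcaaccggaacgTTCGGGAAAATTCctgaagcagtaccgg
Dnajb6: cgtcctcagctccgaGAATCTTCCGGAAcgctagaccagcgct
Hsph1: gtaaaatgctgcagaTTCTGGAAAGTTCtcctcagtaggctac
Hspd1 and Hspe1: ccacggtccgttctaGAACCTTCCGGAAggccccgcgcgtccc

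The 5 genes with this motif had log2 fold changes of −0.016 for Chordc1, −0.12 for Dnajb6, 0.016 for Hsph1, −0.11 for Hspd1 and −0.17 for Hspe1, and none passed the test. With control library 1 left out, 4 of them changed sign: Dnajb6 stood at 0.047, Hsph1 at −0.021, Hspd1 at 0.025 and Hspe1 at 0.27, while Chordc1 stood at −0.16. Units in pairs were found in 19 of 80 member windows and in 15.1% of all windows. A match of letters is a description and not a bound site, and a window without one says nothing about Hsf1.

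For the constitutive cytosolic chaperones the groups overlapped. Hsp90ab1 (chromosome 17, 45567775 to 45573271) measured 218509, 204389 and 206325 in sponge neurons and 255071, 223255 and 178439 in control neurons. The sponge values lay inside the range of the control libraries, at a log2 fold change of −0.047 ± 0.16 (SE; 95% interval −0.42 to 0.32). Without control library 1 it was 0.07. Hspa8 (chromosome 9, 40800984 to 40810087) had 87388, 82195 and 84200 in sponge neurons and 85441, 80188 and 71691 in control neurons, a log2 fold change of 0.10 ± 0.12 (SE; 95% interval −0.18 to 0.38). Of its 75-base words 32.8% occur in other genes, most of them in the processed pseudogene Gm15459.

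Of the 11 Hsp70 genes 7 had a positive and 4 a negative log2 fold change (median 0.041), and 0 passed. With control library 1 left out 10 were positive (median 0.10), where 52% of all genes and 49 of 74 members were. Without control library 3 the median was 0.031. Hspa2, best known from male germ cells, measured 1368, 1202 and 1421 in sponge neurons and 1135, 1176 and 1120 in control neurons. All 3 sponge values were above all control values, at a log2 fold change of 0.21 ± 0.14 (SE), and its adjusted p from limma was 0.925. Within the Hsp110 family, Hspa4l measured 9731, 8791 and 9981 in sponge neurons and 5589, 8888 and 8907 in control neurons. Its log2 fold change of 0.32 ± 0.19 (SE) was 0.09 without control library 1, the low library. Hspa4, the third Hsp110 gene, averaged 28450 ± 2210 in sponge neurons and 28004 ± 1931 in control neurons (SD, n = 3 each).

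In the endoplasmic reticulum, Dnajc3 had the smallest unadjusted p of the members higher in sponge neurons. Dnajc3 (ENSMUSG00000022136, chromosome 14, 118937976 to 118981697), also called p58IPK, is a DnaJ partner of the Hsp70 BiP and is induced by the unfolded protein response. It measured 8054, 7802 and 7601 normalised counts in sponge neurons and 5521, 6876 and 6653 in control neurons, and the groups did not overlap. The log2 fold change was 0.31 ± 0.12 (SE; 95% interval 0.02 to 0.59; unadjusted p = 0.0387, adjusted p = 0.925, limma) and 0.21 without control library 1 (95% interval 0.035 to 0.38). Markers of oligodendrocyte precursors stood higher too: all 5 were above 0 in every library, and they summed to 111800 to 125447 in sponge neurons and 84935 to 104807 in control neurons. Their part in the Dnajc3 value was not tested.

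For the other 9 members of that compartment the groups overlapped. Hspa5, the gene of BiP, measured 33338, 34330 and 34273 in sponge neurons and 36075, 33040 and 30245 in control neurons. The sponge values lay inside the control range (log2 fold change 0.041 ± 0.12, SE; 95% interval −0.23 to 0.31). Hsp90b1, also called Grp94, averaged 44795 ± 2132 in sponge neurons and 46506 ± 6323 in control neurons, and Dnajb9, a target of the same response, 3977 ± 176 and 4009 ± 574 (SD, n = 3 each). Of the 10 members of this compartment 7 were positive and 3 negative, with a median of 0.026. Without control library 1 all 10 were positive (median 0.06), where 52% of all genes and 49 of 74 members were. Without control library 3 the median was −0.015.

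The endoplasmic reticulum stress element, CCAAT followed after 9 free bases by CCACG and searched for on both strands, was found in the windows of 3 members, Dnajc3, Hsp90b1 and Hspa5. It occurred in 3 of 80 member windows and in 0.119% of all windows. The sequences are shown because Dnajc3 shares this element with Hspa5 and Hsp90b1 while its fold change was larger; they lie at chr14:118937812-118937860 (plus strand), chr2:34772010-34772058 (plus) and chr10:86705623-86705671 (minus), with the element in capitals. Hsp90b1 holds a second match in the reverse direction.
Dnajc3: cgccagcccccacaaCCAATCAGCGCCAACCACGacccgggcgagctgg
Hspa5: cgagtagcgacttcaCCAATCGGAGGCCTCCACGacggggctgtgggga
Hsp90b1: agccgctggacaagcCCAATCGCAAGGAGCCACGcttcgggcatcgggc

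Among the 9 mitochondrial members 1 was positive and 8 were negative (median −0.10), and without control library 1 there were 7 positive with a median of 0.025. Hspd1 and Hspe1, which form the Hsp60 and Hsp10 chaperonin, are transcribed head to head from the same stretch of chromosome 1 (55077835 to 55088243 and 55088132 to 55091307). Hspe1 measured 5825, 5022 and 4986 in sponge neurons and 11037, 4412 and 4292 in control neurons. Control library 1 was far above all others, and without it every sponge value was above the control values. The log2 fold change was −0.17 ± 0.34 (SE) with it and 0.27 without it (95% interval 0.06 to 0.49; unadjusted p = 0.0161, adjusted p = 0.648, limma). Hspd1 had 21064, 21005 and 21843 in sponge neurons and 27543, 23013 and 19036 in control neurons, −0.11 with and 0.025 without that library. Hspa9, the mitochondrial Hsp70, averaged 33297 ± 730 in sponge neurons and 35281 ± 5147 in control neurons (SD, n = 3 each).

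Most small heat-shock proteins were scarce, with Hspb6 and Hspb11 the highest. Hspb1 (ENSMUSG00000004951, chromosome 5, 135887919 to 135889563), also called Hsp25, had the smallest unadjusted p of the members that were lower. It measured 15.8, 12.5 and 19.4 normalised counts in sponge neurons and 48, 32.6 and 33.4 in control neurons, and the groups did not overlap. The log2 fold change was −1.20 ± 0.48 (SE; 95% interval −2.31 to −0.10; unadjusted p = 0.0361, adjusted p = 0.925, limma), and −1.03 without control library 1 with an unadjusted p of 0.106. These are very few counts at this depth. The summed level of 6 endothelial and pericyte markers overlapped between the groups, at 13293, 8645 and 11096 in sponge neurons and 13550, 8555 and 8713 in control neurons. Of these markers 4 had a positive log2 fold change (median 0.17). Without control library 1 all 6 were positive (median 0.62), where 52% of all genes were. Their part in the Hspb1 value was not tested.

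Hspb8, which works with Bag3, measured 655, 264 and 251 in sponge neurons and 284, 151 and 261 in control neurons. Sponge library 1 alone was far above the rest, and the log2 fold change of 0.65 ± 0.43 (SE) was 0.20 without it. Hspb3, a muscle form, had 0, 8.3 and 8.8 in sponge neurons and 46, 12.6 and 6.1 in control neurons. Of the 8 small heat-shock proteins 6 were tested, 1 of them positive and 5 negative, and with control library 1 left out 3 were positive. Hspb11 counts among them by symbol, although its product is known from intraflagellar transport.

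The DnaJ genes fall into 3 classes by their domains, and directions were mixed in classes B and C. All 4 class A genes, the closest relatives of bacterial DnaJ, had negative log2 fold changes, from −0.17 to −0.0073, and without control library 1 there were 2 positive. In class B, 4 of 12 were positive and 8 negative (median −0.03). In class C, whose members share only the J domain and serve many tasks, 12 of 26 were positive and 14 negative (median −0.017). With control library 1 left out, both majorities turned, to 8 of 12 positive in class B (median 0.038) and 16 of 26 in class C (median 0.026). None of the 42 DnaJ genes tested passed.

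Dnajc21, which in human cells and yeast acts in making the large ribosomal subunit, measured 1964, 1946 and 2003 in sponge neurons and 2378, 2242 and 2255 in control neurons. All 3 sponge values were below all control values and both groups were tight, at a log2 fold change of −0.22 ± 0.12 (SE; 95% interval −0.50 to 0.06; adjusted p from limma 0.925), and −0.19 without control library 1. Dnajb5 was likewise lower without overlap, with 9578 ± 190 in sponge neurons and 10477 ± 487 in control neurons (SD, n = 3 each), at −0.13 ± 0.10 on the log2 scale (SE). The same held for Dnajc11, which associates with the complex that shapes mitochondrial cristae, with 10151 ± 76.0 in sponge neurons and 11025 ± 585 in control neurons (SD, n = 3 each).

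Several DnaJ genes with larger fold changes rested on few counts or on control library 1. Dnajc22, whose Drosophila relative acts in endocytosis, had 27.6, 35.4 and 40.6 in sponge neurons and 38, 82 and 105 in control neurons. Control library 1 lay among the sponge values, and the log2 fold change of −1.0 ± 0.47 (SE) was −1.42 without it (unadjusted p = 0.00567, adjusted p = 0.648, limma) and −0.70 without control library 3. Dnajb3, a gene best known from testis, had 165, 239 and 234 in sponge neurons and 554, 251 and 206 in control neurons, and Dnajc17 had 1575, 1696 and 1930 against 2956, 2017 and 1636. Both were led by control library 1, and their values of −0.55 and −0.31 were −0.12 and −0.07 without it. The reverse was seen for the membrane DnaJ genes of the endoplasmic reticulum, Dnajc1 and Dnajb14. Dnajc1 had 5541, 5468 and 4622 in sponge neurons and 3063, 4557 and 5506 in control neurons, and Dnajb14 had 4806, 5120 and 4869 against 3073, 4683 and 4966. Their values of 0.29 and 0.25 were 0.05 and 0.032 without control library 1, which was the lowest in both genes. Dnajc9, a histone chaperone, averaged 7594 ± 541 in sponge neurons and 7925 ± 2755 in control neurons (SD, n = 3 each), and its log2 fold change was −0.011 with and 0.26 without that library (unadjusted p = 0.0145, adjusted p = 0.648, limma).

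The groups also overlapped for the members that serve the synapse and the clathrin cycle. Dnajc5, the cysteine string protein of synaptic vesicles, measured 32686, 32190 and 32826 in sponge neurons and 30879, 35023 and 31631 in control neurons. The sponge values lay inside the control range, with a log2 fold change of 0.0046 ± 0.11 (SE; 95% interval −0.25 to 0.26). Dnajc6, the neuronal auxilin that recruits Hspa8 to clathrin coats, had 4760, 4620 and 3792 in sponge neurons and 4101, 4090 and 3986 in control neurons. The endosomal member Dnajc13 had 10955, 11572 and 11647 in sponge neurons and 6106, 10658 and 12364 in control neurons. Control library 1 was again the low library for this long gene, and the log2 fold change of 0.29 ± 0.25 (SE) was −0.012 without it.

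Sites for miR-17-5p were looked up in the longest annotated 3′ UTR of each gene (GENCODE M21, GRCm38), as the 7 bases GCACTTT that pair with the seed. A site was found in 11 of 78 members, 14.1%, and in 13.1% of the 17515 genes with such a UTR. Dnajb14 held 3 sites, and Dnaja4, Dnajc18 and Dnajc27 held the 8-base form that ends in A. Windows are printed for the gene with most sites and for 2 genes with the 8-base form, as the positions where the seed could pair with a chaperone transcript: Dnajb14 at chr3:137914316-137914322, chr3:137914951-137914957 and chr3:137916015-137916021 (plus strand), Dnaja4 at chr9:54715796-54715802 (plus) and Dnajc27 at chr12:4109349-4109355 (plus), with the site in capitals.
Dnajb14 site 1: cttcaaatGCACTTTtatgctta
Dnajb14 site 2: aacccagaGCACTTTttattatt
Dnajb14 site 3: ataggaagGCACTTTtgagtgac
Dnaja4: agtagactGCACTTTaaataaag
Dnajc27: cttcgtcaGCACTTTagagcgtc

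The direction of the members with a site depended on control library 1. Of the 11, 4 were positive and 7 negative, with a median log2 fold change of −0.016 and a range from −0.17 to 0.25. The 63 tested members without a site had 25 positive and a median of −0.04. With control library 1 left out, 7 of the 11 with a site were positive (median 0.02), and 42 of the 63 without a site (median 0.05). Dnajb14, with most sites, had 0.25 ± 0.19 (SE) over all libraries and 0.032 without control library 1. Dnaja4, a cytosolic DnaJ gene, had −0.17 ± 0.17, and Dnajc27, which carries a Rab-like GTPase domain, had 0.05 ± 0.12 (SE).

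Other genes of the folding machinery showed no gene past the test either. In a list of 26 further genes, mostly cochaperones of Hsp90 and Hsp70, 5 had a positive and 21 a negative log2 fold change (median −0.12). The list also held Hsf4, Hsf5, Hsbp1, Cryab and Serpinh1, which are not cochaperones of this kind. All 14 subunits of the TRiC chaperonin and prefoldin, which fold actin and tubulin, were negative (median −0.10). Of 21 entries for endoplasmic reticulum stress and folding 6 were positive and 15 negative (median −0.014), and of 14 genes of mitochondrial protein quality control 5 were positive and 9 negative (median −0.09). Without control library 1 the TRiC and prefoldin list had 13 of 14 positive (median 0.11), and the list of 26 genes had 14 positive (median 0.05). The list for endoplasmic reticulum stress and folding then had 13 of 21 positive (median 0.05), and the mitochondrial list 8 of 14 (median 0.034). The medians of all 4 lists thus changed sign when that library was left out, a setting in which 52% of all genes were positive.

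Within the family, control library 1 deviated by gene length. It was the highest of the 6 libraries in 36 of 74 members and the lowest in 15, where 33.8% and 36.5% of all genes had it highest and lowest. Its log2 difference from the mean of control libraries 2 and 3 had a median of 0.44 over the 25 shortest members (up to 2803 bases of exon), 0.27 over the 24 of middle length and −0.12 over the 25 longest (from 5088 bases). Across the 74 members Spearman's rho with exonic length was −0.54, and across 15597 protein-coding genes it was −0.50. These are descriptions across genes of the same libraries, which are not independent replicates. Hspe1, with 1474 bases, lay 1.34 above the other control libraries, and Dnajc13, with 11938 bases, stood at −0.91.

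**Figure D4:**
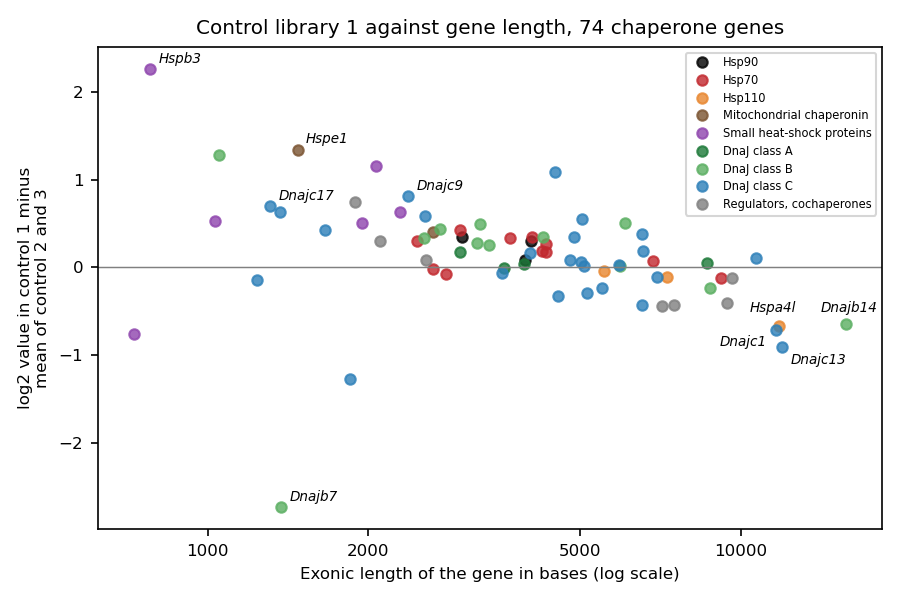
Difference of control library 1 from the mean of control libraries 2 and 3 (log2, y axis) against exonic length in bases (log scale, x axis) for the 74 members, coloured by family. Short genes such as Hspe1 lie above 0 and long genes such as Dnajc13 and Dnajb14 below it; Dnajb7 and Hspb3 have few counts.

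The spread between replicates was small in the sponge group. The within-group SD of log2 values had a median of 0.08 over the members in the sponge libraries and 0.21 in control neurons, against 0.16 and 0.36 over all genes tested. The control SD includes control library 1. Over the members its absolute log2 difference from the mean of control libraries 2 and 3 had a median of 0.33. Between control libraries 2 and 3 the median absolute difference was 0.15. Leaving out control library 1 gave a median half-width of the 95% interval over the members of 0.21, and 54 of 74 members had intervals between −0.5 and 0.5 (background 47.2%). In that setting 3 members were higher (Dnajc3, Dnajc9 and Hspe1) and 2 lower (Hsf1 and Dnajc22) at an unadjusted p under 0.05, where 4% and 3.53% of all genes were, and 0 passed with adjustment (background 0.0089%), the smallest adjusted p being 0.648 with limma.

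The 4 members below the filter of a mean of 10 were Dnajb8, Dnajc5b, Hspb2 and Hspb7. Dnajb8 had 3.9, 11.5 and 3.5 in sponge neurons and 4, 3.2 and 13.1 in control neurons. Dnajc5b was listed at 0 in all sponge libraries and at 6, 0 and 16.2 in control neurons. Hspb2 had 11.8, 7.3 and 0 against 2, 0 and 0, and Hspb7 was at 0 except for 1.8 in sponge library 3. No fold change is given for genes at these levels.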

How the data were processed

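The deposited count table holds gene counts that the authors divided by 1 size factor per library, a signal on a linear scale, per the file's title and the labels. STAR 2.7.6a and DESeq2 1.30.1 are named in the submitters' processing notes, with mm10 and GRCm38 as builds. The labels name a stranded library kit. Neither the annotation, the counting tool nor its strand setting is given in the sources used here, so overlapping genes such as Hspd1 and Hspe1 and near-copies such as Hspa1a and Hspa1b may share reads. The second deposited table gives the authors' mean, log2 fold change, p-value and adjusted p-value for 10812 genes, none with a mean under 1000.

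Columns were matched to samples by name. The test used limma 3.58.1 (R 4.3.3) and log2 of the value plus 1, for genes whose mean was at least 10 normalised counts (trend, robust, two-sided, Benjamini-Hochberg over all genes tested, threshold 0.05). Fold changes are on this scale, which understates low genes. The test was checked on simulated data with independent values and the same spread in both groups. That check does not cover a library that deviates across many genes, as control library 1 did. Every value of a column was a whole multiple of 1 step, which gives the depth; count models were not run. Sequences are from RefSeq (GRCm38.p6), and gene models, exonic lengths and 3′ UTRs from GENCODE M21 (GRCm38). Shared words of 75 bases were counted over all annotated transcripts.

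Named members were, by rule, the 6 of smallest p in each direction with a mean of at least 50, the heat-inducible list with Hsf1 and Hsf2, the 6 with the highest mean, and the synaptic list; other members are named where a count or a sequence concerns them, after their values were seen. Members, lists and tests were chosen with earlier results of these data known.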

Additional observations from a re-analysis of the deposited data

How the results depend on the processing

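The counts of members past the threshold were 0 higher and 0 lower under every alternative run: pseudocounts of 0.5 and 10, no filter, a filter of 50, TMM scaling, array quality weights, the replicate block, and each library left out in turn. Over the settings that leave out 1 library these counts ran from 0 to 0, and the members' median from −0.09 (without control 3) to 0.045 (without control 1), against −0.021; with the replicate block it was −0.021. With weights, limma called 4 genes in all, and 7 of 74 members had an unadjusted p under 0.05, as had 1744 of all 22479 genes; with the block 0 members and 527 genes had. The block changed no call. Deviations of same-numbered libraries correlated at 0.0096, 0.0054 and −0.05 across genes. These values cannot tell whether such libraries were prepared as pairs, and the labels do not say. Of 237 values of named members in alternatives that keep all libraries, 8 changed sign: with weights Hspe1 (0.18), Hsph1 (−0.034), Dnajb1 (0.035), Hspa1a (0.31), Stip1 (0.021), Hsp90b1 (0.0028) and Dnajc5 (−0.07), and with TMM scaling Dnajc5 (−0.00099). Leaving out 1 library turned 20 of 204 values, 11 of them without control 1. The ranges were −0.16 to 0.11 for Chordc1, −0.20 to 0.14 for Hspa1a, −0.12 to 0.08 for Stip1, −0.021 to 0.05 for Hsph1, −0.031 to 0.06 for Dnajc5, −0.24 to 0.025 for Hspd1, −0.41 to 0.27 for Hspe1, −0.10 to 0.043 for Dnajb1, −0.19 to 0.07 for Hsp90ab1, −0.14 to 0.05 for Hsp90b1, −0.19 to 0.018 for Hspa9, −0.023 to 0.10 for Hspa5 and −0.012 to 0.50 for Dnajc13. The cause was not tested. The planned count models were not run. Members of few counts, such as Hspb1, had wide intervals, and so did some of higher level, such as Hspb8 (SE 0.43). The part of depth in this was not tested.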

Other observations

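The processed pseudogene Gm15459 (ENSMUSG00000100801, GRCm38, chromosome 5, 5781615 to 5783555, minus strand) stood among the chaperones by level. It was chosen after its values were seen, as the gene that shares most sequence with Hspa8: of its 75-base words 79.9% occur in Hspa8 transcripts, and they make up 30.2% of the words of Hspa8. It measured 32074, 28042 and 29278 normalised counts in sponge neurons and 17764, 27905 and 24076 in control neurons. All 3 sponge values were above all control values, with sponge library 2 and control library 2 nearly equal, at a log2 fold change of 0.38 ± 0.18 (SE; adjusted p from limma 0.925) and 0.20 without control library 1. Summed with Hspa8 the level was 119462, 110237 and 113478 in sponge neurons and 103204, 108093 and 95767 in control neurons, and these sums did not overlap either. How reads with several matching places were counted is not given in the sources used here, so the separate levels of Hspa8 and Gm15459 are uncertain.

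Pseudogenes of Hspb1 and Hspd1 were low. The copy that shares 46.4% of the words of Hspb1, Hsp25-ps1, had 6.9 normalised counts in sponge library 1 and was listed at 0 in the other 5 libraries. Hspd1-ps3 had 78.8, 60.4 and 79.5 in sponge neurons and 108, 87.3 and 48.5 in control neurons.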
